A study of Mus musculus with 6 samples.

Results

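The caspase genes Casp8, Casp9, Casp2, Casp6, Casp1, Casp4 and Casp12 were followed together with the caspase-like regulator gene Cflar. The cells were cultures of the mouse aorta labelled as endothelial, and as null or wild type for the growth factor kinases ERK1/2. The genes were chosen by name, as those that the platform annotation ties to a single-gene row of an Affymetrix expression array, and all 8 of them were among the 14860 genes tested. RNA was measured on 6 arrays, 3 labelled ERK1/2 null and 3 labelled ERK1/2 wild type, with biological replicates numbered 1 to 3 in each group. The cells came from the aorta of mice 4 weeks old on a C57/BL6 background (5 generations). Cultures of the ERK1/2 null group carried the genotype Erk1-/-; Erk2fl/fl and received a lentivirus with Cre recombinase, written as egfp-Cre for replicate 1 and as Cre for replicates 2 and 3 in the genotype label. Cultures of the ERK1/2 wild type group carried the same genotype, Erk1-/-; Erk2fl/fl, and received a lentivirus with GFP. By that label both groups lacked Erk1 and differed in the recombination of Erk2 and in Cre itself. In the ERK1/2 null group a GFP was named for replicate 1 alone, so by label the groups also differed in GFP. No label says whether each culture came from its own animal, so the p-values measure the spread between these cultures. The targeted kinase genes were not analysed here, and the labels were therefore not checked against the deleted gene.

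Caspases are proteases that cut after aspartate and are made as inactive precursors. Initiator caspases are switched on in large complexes, caspase-8 beneath death receptors such as Fas and caspase-9 on the Apaf1 apoptosome, and they cleave executioner caspases, which then cut the proteins of the cell. Cflar encodes c-FLIP, a caspase-8 relative without protease activity that pairs with caspase-8 and restrains it. Inflammatory caspases act in another way: caspase-1 matures interleukin-1 beta on inflammasomes, and mouse caspase-4, also called caspase-11, responds to bacterial lipopolysaccharide in the cytosol and cleaves the pore-forming protein gasdermin D. Dying endothelial cells detach from the vessel wall, and signalling through ERK is known to restrain death in many cell types. Arrays measure transcripts, and caspase activity is set mostly by cleavage, which was not measured.

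The genes fell on 5 chromosomes. Casp1, Casp4 and Casp12 followed one another on chromosome 9 with no other gene between them in the RefSeq table, and Cflar and Casp8 lay on chromosome 1 with a single long non-coding RNA gene between them. Casp2 was on chromosome 6, Casp6 on chromosome 3 and Casp9 on chromosome 4. The 250 bases before the annotated start are printed for the 4 genes whose groups of arrays did not overlap, Casp12, Casp4, Casp2 and Casp8, from RefSeq on build GRCm38.p6, all on the plus strand and from 5′ to 3′. Capitals mark matches, on either strand, to any of 6 motifs that were picked after these sequences had been seen.
Casp12 (chr9:5345226-5345475): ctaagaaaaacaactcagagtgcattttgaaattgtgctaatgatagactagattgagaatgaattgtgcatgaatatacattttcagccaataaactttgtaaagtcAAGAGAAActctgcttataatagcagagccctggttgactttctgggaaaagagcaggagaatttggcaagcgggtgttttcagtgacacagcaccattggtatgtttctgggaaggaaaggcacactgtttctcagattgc
Casp4 (chr9:5308599-5308848): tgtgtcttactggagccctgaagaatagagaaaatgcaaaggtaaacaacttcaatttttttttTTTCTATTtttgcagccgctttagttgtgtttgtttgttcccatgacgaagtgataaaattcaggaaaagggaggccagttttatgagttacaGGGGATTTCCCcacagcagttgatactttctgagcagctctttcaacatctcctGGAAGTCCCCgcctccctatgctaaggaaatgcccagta
Casp2 (chr6:42264735-42264984): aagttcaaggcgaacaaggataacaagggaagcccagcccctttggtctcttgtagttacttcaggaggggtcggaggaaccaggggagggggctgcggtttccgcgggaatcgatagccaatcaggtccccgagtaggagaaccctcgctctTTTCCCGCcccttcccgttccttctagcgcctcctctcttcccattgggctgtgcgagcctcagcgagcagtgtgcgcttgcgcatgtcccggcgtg
Casp8 (chr1:58802252-58802501): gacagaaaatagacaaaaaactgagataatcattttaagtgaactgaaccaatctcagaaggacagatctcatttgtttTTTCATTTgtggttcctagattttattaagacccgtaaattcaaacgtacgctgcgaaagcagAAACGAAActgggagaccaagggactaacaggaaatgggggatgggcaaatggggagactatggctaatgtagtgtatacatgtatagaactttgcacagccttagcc

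The motifs searched were AANNGAAA (the core of interferon regulatory factor sites), GAAANNGAAA (the interferon-stimulated response element, which contains that core), the NF-kB consensus, TTTCCCGC (an E2F site), TGANTCA (AP-1) and CCGGAAG (an ETS site). The core AANNGAAA stood in the windows of 3 of the 8 genes, Casp12, Casp4 and Casp8, and in 21.3% of all 32851 RefSeq promoter windows of this length. Counted by gene, with a match in any window, it was 6466 of 27025. Casp4 alone held the NF-kB consensus, in capitals toward its 3′ end and with overlapping matches on both strands. So did 7.25% of all windows, or 2225 of 27025 genes. RefSeq lists another start for Casp4 a few bases downstream, whose window holds the same matches and a further AANNGAAA core. Casp2 alone held TTTCCCGC, which was found in 0.895% of all windows (279 of 27025 genes). GAAANNGAAA, TGANTCA and CCGGAAG were in the windows of 0 of the 8 genes, against 2.98%, 6.75% and 6.91% of all windows (936, 2113 and 2115 of 27025 genes). Other starts of these genes were not searched, and a match is no evidence of binding.

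Casp12 rose in ERK1/2 null cultures, and Casp2 and Casp8 fell. With limma and Benjamini-Hochberg adjustment over all 14860 genes, 3 of the 8 passed an adjusted p of 0.05, compared with 11.5% of all genes. Of these, 1 was higher (5.35% of all genes) and 2 were lower (6.12% of all genes). In 4 of the 8 genes the null and wild type arrays did not overlap, the fourth being Casp4, which was higher, and 31.0% of all genes showed such separation. These 4 were 2 higher (16.5% of all genes) and 2 lower (14.6% of all genes). No label says that arrays of the same number belong together, and the numbers were taken to pair them from correlations in these same data. With the replicate number as a block Casp4 passed too, giving 4 of 8 against 16.7% of all genes. These were 2 higher (8.92% of all genes) and 2 lower (7.76% of all genes). The 8 differences had a median of 0.01 on the log2 scale, beside 0.02 over all genes, while the median size regardless of sign was 0.45 for the 8 genes and 0.22 for all genes. All values below are expression on the log2 scale, on which a step of 1 is a doubling, and levels of different genes are not comparable because each has its own probes.

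**Figure D1:**
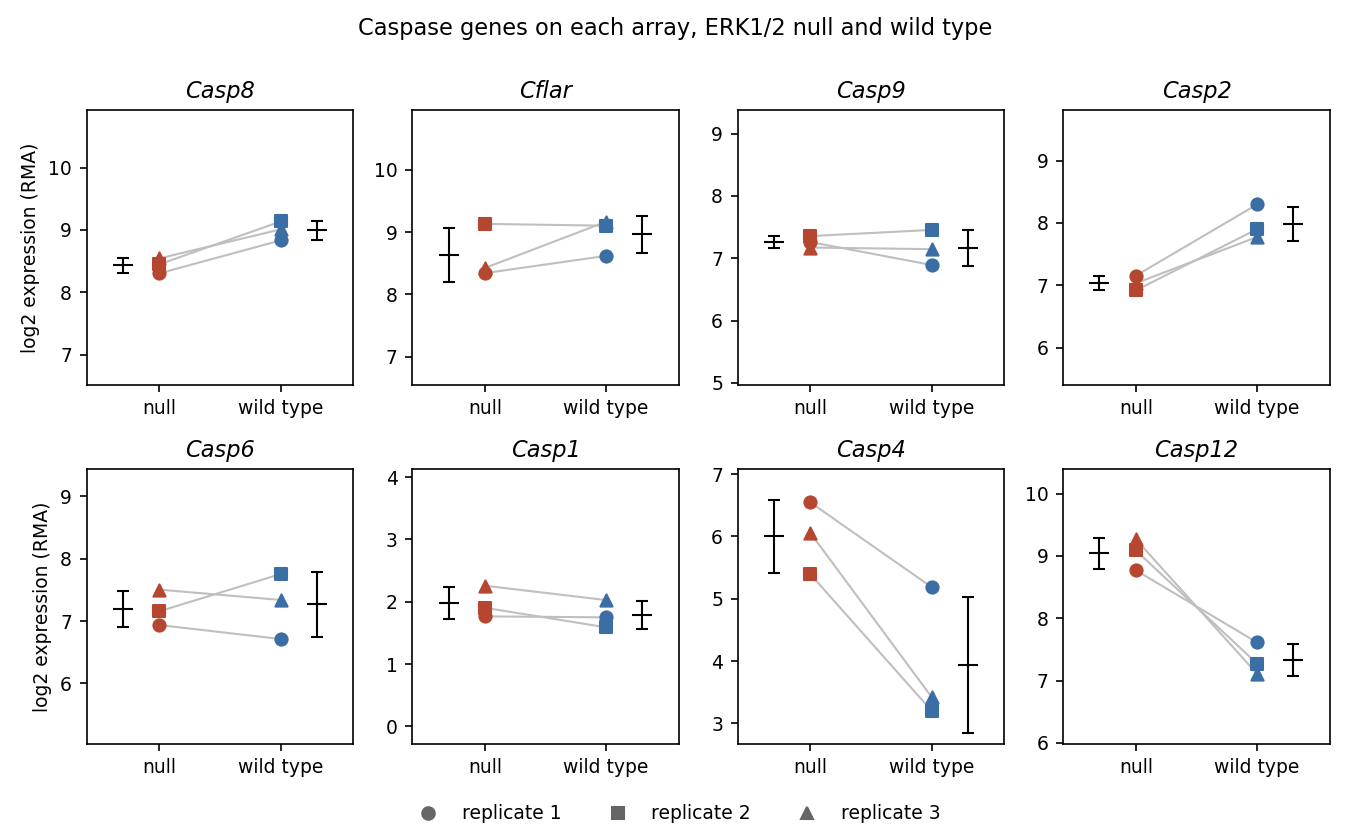
Log2 expression (RMA) of the 8 genes on each array, ERK1/2 null on the left and wild type on the right of each panel; symbols give the replicate number, grey lines join arrays of the same number, and black marks are the group mean with SD (n = 3). All panels span the same number of log2 units, and the groups stand apart for Casp8, Casp2, Casp4 and Casp12.

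Among the initiators, Casp8, whose product starts the death receptor pathway, read 8.30, 8.45 and 8.54 in ERK1/2 null replicates 1, 2 and 3, against 8.83, 9.14 and 9.01 in wild type replicates 1, 2 and 3. Every null array lay below every wild type array. Casp8 fell 1.48-fold (8.43 ± 0.12 against 8.99 ± 0.15, SD, n = 3 each; log2 difference −0.56, SE 0.13, limma adjusted p = 0.042). The call held without wild type replicate 1 (adjusted p = 0.0497) and was lost without any other single array, with adjusted p up to 0.123, although the difference stayed between −0.64 and −0.49. Total RNA of a culture was measured, so fewer cells with the transcript and less of it per cell cannot be told apart, for Casp8 or for any gene here.

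Cflar, which encodes the restraining partner of caspase-8, did not pass. Its values were 8.34, 9.13 and 8.43 in ERK1/2 null replicates 1, 2 and 3, against 8.62, 9.10 and 9.17 in wild type replicates 1, 2 and 3. The groups overlapped, since null replicate 2 sat with the upper wild type arrays. The log2 difference of Cflar was −0.33 (SE 0.26, 95% interval −0.95 to 0.29, limma adjusted p = 0.50), so a fall as large as that of Casp8 was not excluded by the interval. A further row of the array names Cflar together with a pseudogene and was left out of the fit. Its means were 9.22 in ERK1/2 null and 9.37 in wild type, a log2 difference of −0.15 that was not tested. The annotation does not say which splice forms of c-FLIP or caspase-8 the probes detect.

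Casp9, the apoptosome initiator, read 7.26, 7.35 and 7.17 in ERK1/2 null replicates 1, 2 and 3, against 6.89, 7.45 and 7.15 in wild type replicates 1, 2 and 3. The null values lay inside the range of the wild type values. Its log2 difference was 0.10 (SE 0.16, 95% interval −0.30 to 0.50, limma adjusted p = 0.79).

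Casp2, an initiator that is activated on the PIDD1 platform after DNA damage or when a cell carries extra centrosomes, also fell. It read 7.15, 6.92 and 7.03 in ERK1/2 null replicates 1, 2 and 3, against 8.30, 7.90 and 7.78 in wild type replicates 1, 2 and 3. The null arrays lay close together and all below the wild type arrays. Casp2 fell 1.94-fold (7.04 ± 0.12 against 7.99 ± 0.27, SD, n = 3 each; log2 difference −0.96, SE 0.17, limma adjusted p = 0.017), and 91.0% of all genes had a difference of the same or smaller size. Without null replicate 2 its adjusted p was 0.070, and without null replicate 3 it was 0.059, with differences of −0.90 and −0.95.

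Casp6, an executioner that cuts nuclear lamins, did not separate the groups. It read 6.94, 7.16 and 7.50 in ERK1/2 null replicates 1, 2 and 3, against 6.71, 7.75 and 7.34 in wild type replicates 1, 2 and 3. Its log2 difference of −0.07 (SE 0.29, 95% interval −0.77 to 0.63, limma adjusted p = 0.92) left a change of either sign possible, and its sign turned when single arrays were left out.

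Among the inflammatory genes that neighbour each other on chromosome 9, the groups of arrays stood apart for Casp4 and Casp12 and overlapped for Casp1, and differences between the genes were not tested. Casp1, whose product matures interleukin-1 beta, read 1.77, 1.90 and 2.26 in ERK1/2 null replicates 1, 2 and 3, against 1.75, 1.59 and 2.03 in wild type replicates 1, 2 and 3. These values stood near the bottom of the scale on all 6 arrays, where RMA compresses differences and a fall would hardly show. The log2 difference of Casp1 was 0.19 (SE 0.18, 95% interval −0.25 to 0.62, limma adjusted p = 0.60).

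Casp4, the sensor of cytosolic lipopolysaccharide, read 6.55, 5.39 and 6.06 in ERK1/2 null replicates 1, 2 and 3, against 5.19, 3.21 and 3.43 in wild type replicates 1, 2 and 3. All null arrays were above all wild type arrays, with wild type replicate 1 close to the lowest null array and far above the other wild type arrays. The mean was 6.0 ± 0.58 in ERK1/2 null and 3.94 ± 1.09 in wild type (SD, n = 3 each), a 4.17-fold ratio and a log2 difference of 2.06 (SE 0.57). Wild type replicates 2 and 3 stood low on the scale, so this ratio may understate the difference. This missed the threshold without the block (limma adjusted p = 0.071) and Casp4 rose with the replicate block (SE 0.26, adjusted p = 0.0085, 95% interval 1.42 to 2.70). Without wild type replicate 1, and no block, the difference was 2.68 with an adjusted p of 0.013, and without any other single array Casp4 did not pass, with adjusted p from 0.11 to 0.20.

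Casp12, a mouse caspase of the inflammatory subfamily that has been studied at the endoplasmic reticulum, read 8.77, 9.09 and 9.27 in ERK1/2 null replicates 1, 2 and 3, against 7.61, 7.27 and 7.11 in wild type replicates 1, 2 and 3. The lowest null array exceeded the highest wild type array by more than 1 log2 unit. Casp12 rose 3.27-fold (9.04 ± 0.25 against 7.33 ± 0.26, SD, n = 3 each; log2 difference 1.71, SE 0.19, limma adjusted p = 0.0043). It kept its call without each single array in turn, with adjusted p between 0.0079 and 0.027, and 97.3% of all genes had a difference of the same or smaller size.

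**Figure D2:**
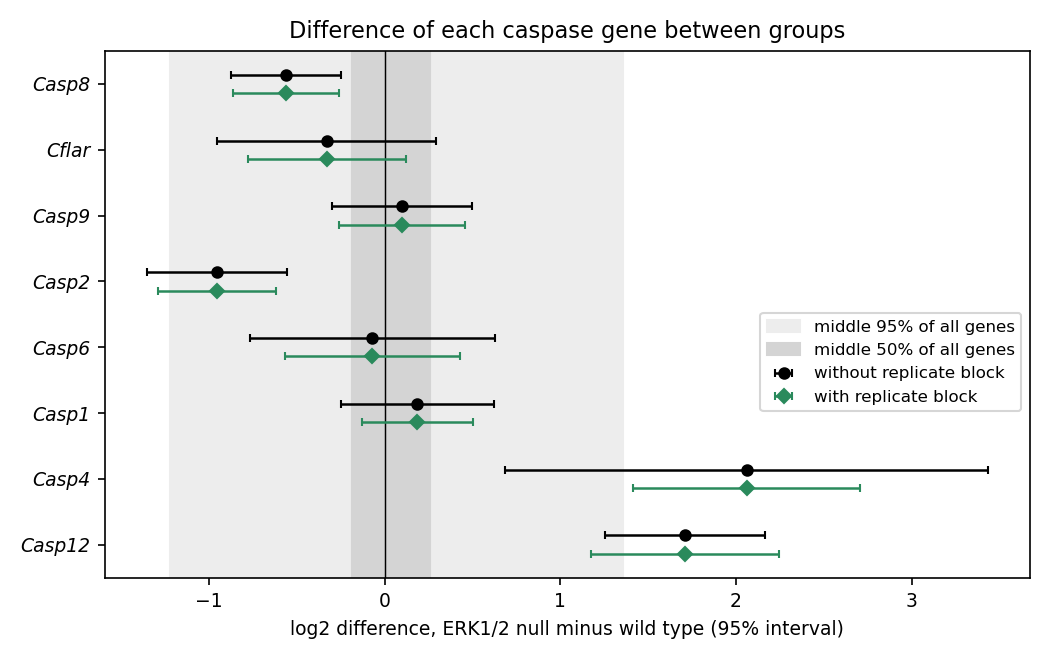
Log2 difference (ERK1/2 null minus wild type) with 95% interval for each gene, from limma without the replicate block (black circles) and with it (green diamonds); shaded bands hold the middle 50% and 95% of the differences of all 14860 genes. Casp4 (2.06) and Casp12 (1.71) lie beyond the wider band, and the interval of Casp4 is narrower with the block.

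Within replicate numbers, where an ERK1/2 null array is set against the wild type array of the same number, Casp12 was higher by 1.16, 1.82 and 2.16 in numbers 1, 2 and 3. Casp4 was higher by 1.36, 2.19 and 2.63 in the same numbers. Both genes thus had their smallest difference in number 1, the number that also held the highest wild type value of each. Casp2 differed by −1.14, −0.98 and −0.74 and Casp8 by −0.53, −0.69 and −0.47 in numbers 1, 2 and 3. The differences of Casp1 were all positive, at 0.02, 0.31 and 0.23, so that 5 of the 8 genes kept a single direction over the numbers, as did 51.6% of all genes. Of these 5, 3 were higher (28.3% of all genes) and 2 were lower (23.3% of all genes). Cflar (−0.28, 0.03 and −0.74), Casp9 (0.37, −0.10 and 0.03) and Casp6 (0.22, −0.60 and 0.17) each held both signs.

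**Figure D3:**
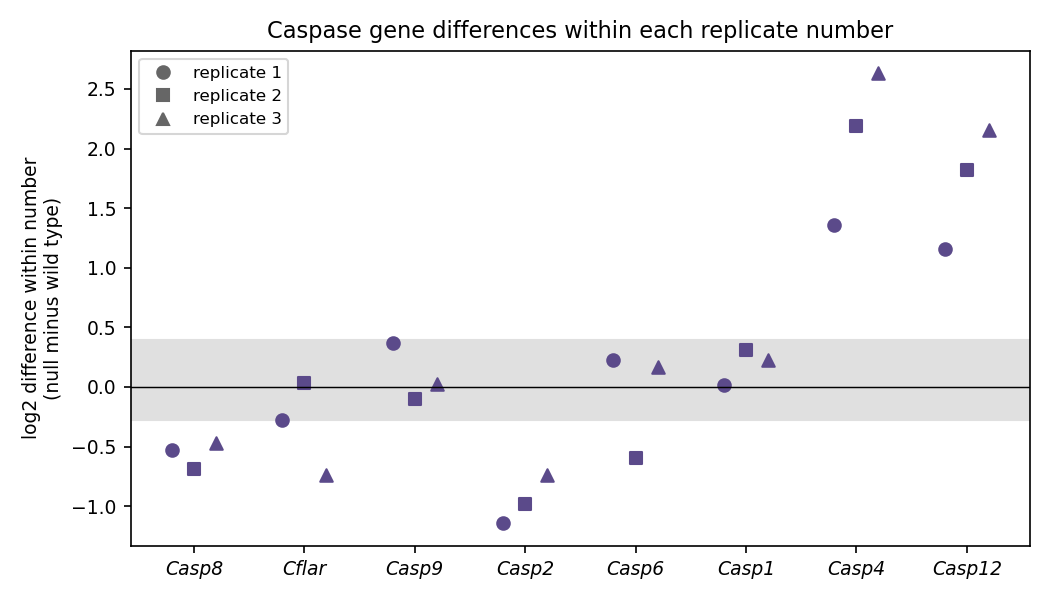
Log2 difference between the ERK1/2 null and the wild type array of the same replicate number for each gene; symbols give the number, and the grey band spans the middle 50% of all genes over the 3 numbers. Casp4 and Casp12 lie above the band and Casp2 and Casp8 below it in each number.

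Genes with the most similar values over the 6 arrays were found as those with the smallest root mean square distance from each called gene after both were centred on their mean. For Casp2 these were Mthfd1, an enzyme of one-carbon metabolism, the centrosomal gene Cep72 and the nucleolar helicase gene Ddx21, at distances of 0.04, 0.07 and 0.07 log2 units. Nearest to Casp8 were Coro1c, which encodes an actin-binding coronin, the mitochondrial GTPase gene Noa1 and the ribosome assembly gene Bms1 (distances 0.03, 0.04 and 0.05). Nearest to Casp12 were Phyh, an enzyme of peroxisomal fatty acid oxidation, the membrane protein gene Pmp22 and the cholesterol exporter gene Abca1 (distances 0.12, 0.14 and 0.15). With 6 arrays and 14860 genes close neighbours are found for nearly any profile, and the distances are a description.

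The partners of these caspases were described by lists. Of 15 genes of the death receptor complex 0 passed with limma and 4 had an unadjusted p under 0.05, as did 25.7% of all genes (median log2 difference 0.27, and 0.02 over all genes). With the replicate block 2 rose, Fas and Tnfaip3, beside 8.92% of all genes. Fas, the receptor that recruits caspase-8, read 8.22, 8.50 and 9.31 in ERK1/2 null replicates 1, 2 and 3, against 6.40, 5.55 and 7.66 in wild type replicates 1, 2 and 3 (log2 difference 2.14, SE 0.56, limma adjusted p = 0.059, blocked 0.0093). The groups of Fas did not overlap, and its direction was opposite to that of Casp8. Tnfaip3, the ubiquitin-editing inhibitor A20, had a log2 difference of 0.74 (adjusted p = 0.54, blocked 0.028).

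Of 8 genes of the apoptosome and of inhibitors of apoptosis 1 fell (6.12% of all genes) and 0 rose (median 0.05). The gene that fell was Htra2, a mitochondrial protease that antagonises these inhibitors (7.82 ± 0.22 against 8.41 ± 0.02, SD, n = 3 each; log2 difference −0.59, SE 0.14, limma adjusted p = 0.045). Pidd1, Cradd and Madd were listed with the Casp2 activating platform, a listing that does not make each of them a part of it. Of these 3 genes 0 passed in limma without the block (11.5% of all genes) or with it (16.7% of all genes). Without the block 0 had an unadjusted p under 0.05, beside 25.7% of all genes. Cradd, the adaptor that links PIDD1 to caspase-2, had the lowest p of them without the block (log2 difference 0.32, SE 0.15, limma adjusted p = 0.23). With the block Pidd1 had the lowest p (log2 difference −0.51, limma adjusted p = 0.35, blocked 0.11).

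Among 17 inflammasome and pyroptosis genes 0 passed in limma without the block and 3 had an unadjusted p under 0.05, beside 25.7% of all genes (median 0.14). With the block 4 rose (8.92% of all genes) and 1 fell (7.76% of all genes). The guanylate-binding protein genes Gbp3 and Gbp2, whose products help to expose lipopolysaccharide to caspase-4, had log2 differences of 3.06 and 3.03 (limma adjusted p = 0.17 and 0.084, blocked 0.0049 and 0.0066). Gbp2 read 7.87, 8.46 and 10.70 in ERK1/2 null replicates 1, 2 and 3, against 4.57, 6.43 and 6.94 in wild type replicates 1, 2 and 3, so its groups did not overlap. Gsdmd, the gasdermin cut by caspase-1 and caspase-4, had a log2 difference of 0.95 (adjusted p = 0.36, blocked 0.021). Il18, a cytokine precursor cut by caspase-1, differed by 0.72 (adjusted p = 0.28, blocked 0.028), and Gsdme, another gasdermin gene, differed by −0.73 (adjusted p = 0.19, blocked 0.031). Of these 17 genes 7 lay in the dimmest 25% of all genes, where a fall would hardly show.

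Of 13 caspase substrates and DNA fragmentation genes 1 rose (5.35% of all genes) and 1 fell (6.12% of all genes), with a median of −0.04. Parp1, the DNA damage polymerase that executioner caspases inactivate, fell 2.08-fold (7.64 ± 0.07 against 8.69 ± 0.09, SD, n = 3 each; log2 difference −1.05, SE 0.11, limma adjusted p = 0.0036). Gsn, the actin-severing protein gelsolin, rose 1.88-fold (11.30 ± 0.20 against 10.39 ± 0.14, SD, n = 3 each; log2 difference 0.91, SE 0.15, limma adjusted p = 0.013). Lmnb2, a nuclear lamin, differed by −0.91 (adjusted p = 0.051) and fell with the replicate block (blocked adjusted p = 0.018).

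Of 12 genes of the endoplasmic reticulum stress response 0 passed in limma without the block and 3 had an unadjusted p under 0.05, beside 25.7% of all genes. The median was 0.18, and 10 of the 12 differences were positive, beside 7976 of all 14860. In 3 genes, Ddit3, Herpud1 and Dnajb9, the groups did not overlap, beside 31.0% of all genes. All 3 were higher in ERK1/2 null, beside 16.5% of all genes. Ddit3, the transcription factor CHOP, had the largest difference and rose with the block (log2 difference 1.69, SE 0.60, limma adjusted p = 0.13, blocked 0.011). It read 8.51, 8.66 and 7.57 in ERK1/2 null replicates 1, 2 and 3, against 7.19, 7.25 and 5.24 in wild type replicates 1, 2 and 3. Casp14, the caspase of skin, differed by 0.04 (adjusted p = 0.88).

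**Figure D4:**
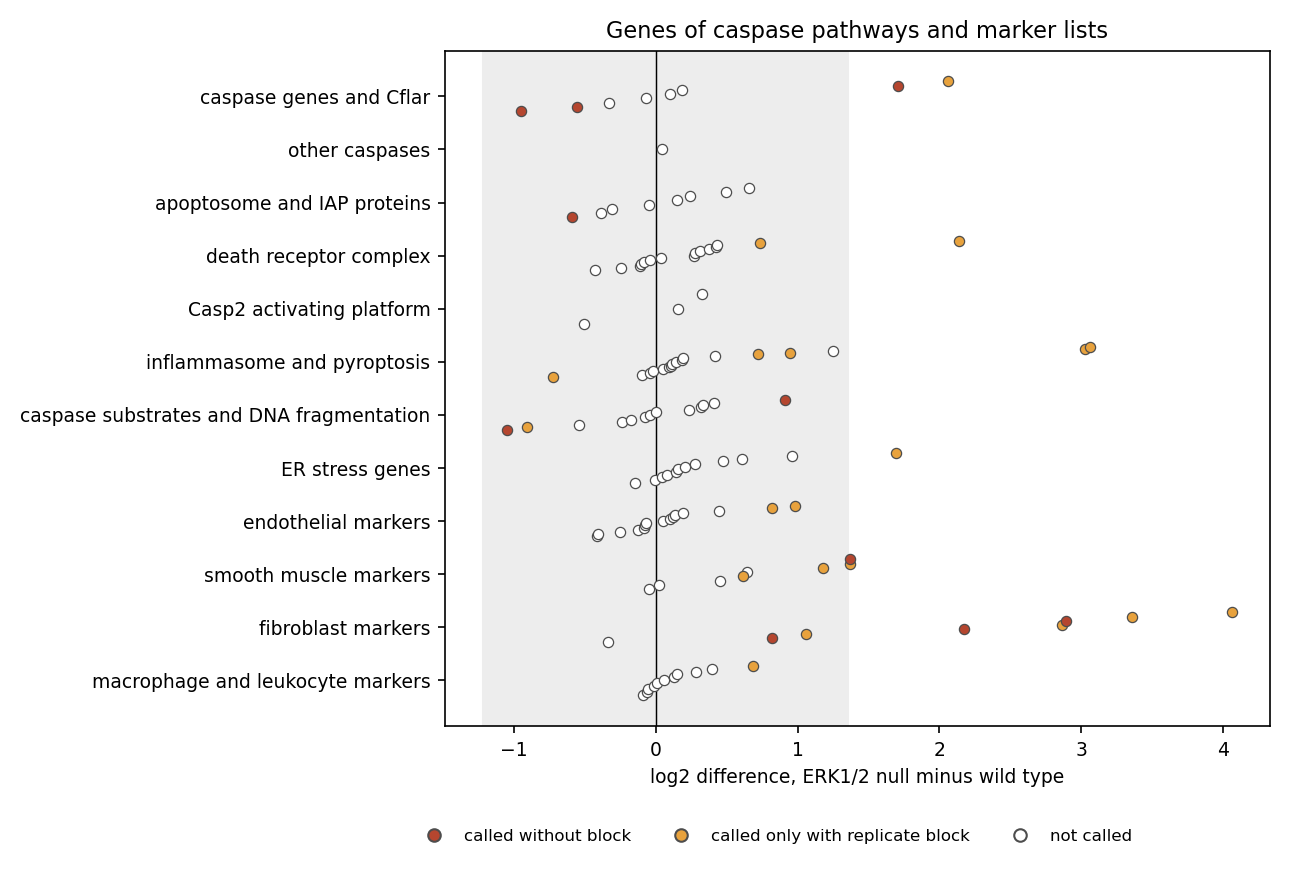
Log2 difference (ERK1/2 null minus wild type) of each measured gene of the lists; red points passed a limma adjusted p of 0.05 without the replicate block, orange points with the block alone, white points neither way, and the grey band holds the middle 95% of all genes. Points within a row are spread vertically for display, and fibroblast markers lie furthest to the right.

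Markers of cell types were read beside these values. Of 15 endothelial markers 0 passed in limma without the block (1 at an unadjusted p under 0.05, beside 25.7% of all genes) and 2 with the block (16.7% of all genes). Of the 15, 7 lay in the dimmest 25% of all genes, and the mean of the list ranged over 4.47 to 4.59 in ERK1/2 null and 4.31 to 4.57 in wild type arrays. Eng had the brightest probes of the list (9.73 in ERK1/2 null against 9.28 in wild type). The endothelial markers that rose with the block were Erg (log2 difference 0.98, blocked adjusted p = 0.034) and Flt1 (0.82, blocked 0.016), and 8 of the 15 differences were positive and 7 negative. Cdh5, the endothelial cadherin that defines the type, was among the 7 dim markers and averaged 3.48 in ERK1/2 null and 3.89 in wild type (adjusted p = 0.42). The endothelial identity of the cultures thus rests on their labels and was not established by these values. Of 8 fibroblast markers 3 rose (5.35% of all genes) and 5 did not pass, 7 rose with the replicate block (8.92% of all genes), and Pdgfra had a log2 difference of −0.34. Their list mean, read beside Casp12 and Casp4, ranged over 9.22 to 11.19 in ERK1/2 null and 8.02 to 8.84 in wild type arrays, with Col1a1 the brightest (12.54 against 11.48). Smooth muscle markers had 1 of 8 called (11.5% of all genes) and 4 with the block (16.7% of all genes). Their list means were 6.78 to 7.23 in ERK1/2 null and 6.08 to 6.58 in wild type arrays, with Acta2 the brightest (12.58 against 11.40). The 11 macrophage and leukocyte markers measured, of 12 listed, had 0 called in limma without the block (11.5% of all genes) and 1, Cd14, with it (16.7% of all genes). Of these markers 0 had an unadjusted p under 0.05 without the block, beside 25.7% of all genes. Their mean ranged over 3.81 to 3.97 in ERK1/2 null and 3.64 to 3.80 in wild type arrays, Cd68 was the brightest (5.93 against 5.78), and the pan-leukocyte gene Ptprc, named after its values were seen, averaged 2.66 in ERK1/2 null and 2.72 in wild type. The part of these cell types in the caspase values was not tested.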

How the data were processed

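Expression was measured on 6 Affymetrix arrays. The authors deposited log2 values for 16775 rows, made with RMA (robust multi-array average) per the submitters' processing notes, which give no version. The genome build is not given in the sources used here. The platform annotation named 1 gene for 14996 rows, several for 1019 and did not list 760. The row with the highest mean stood for a gene with several rows, which left 14860 genes, named through RefSeq (GRCm38.p6). Each of the 8 caspase genes had 1 such row.

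Groups came from the titles. ERK1/2 null was compared with wild type by limma 3.58.1 (lmFit, eBayes, 2-sided) in R 4.3.3, with Benjamini-Hochberg adjustment over 14860 genes and a call at an adjusted p under 0.05, after a check on simulated data. Promoter windows were searched with Python 3.11.15 and pandas 2.3.3. Members, lists and tests were chosen with earlier results of these data known. Deviations from group means correlated across genes at 0.57, 0.35 and 0.45 between arrays of the same number, so the numbers were taken to pair the arrays. The number of arrays limited the precision.

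Genes named beyond the members were, per list, up to 5 called with or without the block with the largest difference, else the one with the lowest p, the brightest gene of each marker list, and the 3 nearest profiles of each called caspase gene. Cd14, Cdh5, Dnajb9, Erg, Flt1, Herpud1, Madd, Pdgfra, Pidd1 and Ptprc were named after their values were seen. Alternatives were quantile normalization, subtraction of array medians, a filter on the dimmest 25% of genes, an intensity trend with robust prior, array weights, the mean of rows, the replicate block and leaving out each array. Fits without both arrays of a number were added after the data were seen.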

Additional observations from a re-analysis of the deposited data

How the results depend on the processing

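With 3 arrays a group, calls near the threshold turned on single arrays. Under quantile normalization, subtracted array medians, an intensity trend with robust prior, array weights, the mean of rows and the filter on dim genes, Casp12, Casp2 and Casp8 passed as in the fit over all 6 arrays. The filter removed Casp1 and gave 5 pathway list genes called, against 3 without it. Over all genes it gave 1924 of 11145 called, against 1705 of 14860. The replicate block added Casp4 (2.06, limma adjusted p = 0.0085), changed no other caspase call and moved the pathway list genes called to 12. Calls over all 14860 genes moved with the block too, from 1705 (11.5%) to 2479 (16.7%). Leaving out single arrays gave 730 to 1331 genes called, 1 to 4 caspase genes called, and log2 differences of −1.06 to −0.80 for Casp2, 1.69 to 2.68 for Casp4 and −0.64 to −0.49 for Casp8. The count of 1 came without null replicate 2 or null replicate 3, when Casp12 alone passed, and 4 without wild type replicate 1, when Casp4 joined.

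Leaving out both arrays of a number leaves 2 arrays a group and fewer degrees of freedom. Without replicate 1 of both groups, Casp4 passed (2.41) and Casp8 did not (−0.58), with and without the block. With the block 10 pathway list genes passed, beside 2053 of all 14860 genes. Without replicate 2, limma called 0 genes, 0 caspase genes and 0 pathway list genes (2642 genes had an unadjusted p under 0.05), with differences of −0.94 for Casp2, −0.50 for Casp8 and 1.66 for Casp12. With the block it called 703 genes, 0 caspase genes and 5 pathway list genes. Without replicate 3, limma called 129 genes, 0 caspase genes and 0 pathway list genes, with differences of −1.06 for Casp2, −0.61 for Casp8 and 1.49 for Casp12. With the block it called 806 genes and 6 pathway list genes, and Casp4 (1.78), Casp2 and Casp12 passed. The signs of Casp12, Casp4, Casp2, Casp8 and Cflar were the same in all 19 alternatives, and those of Casp6 and Casp9 in 15 and 16 of them. Casp1 kept its sign in all 18 in which it was tested, but lay too near the lower end of the scale for a fall to show.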
